A study of Mus musculus with 16 samples.

Results

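The guanylate-binding proteins (GBPs) were followed through both RNA-seq experiments of the series as the 10 genes whose symbols are Gbp2, Gbp3, Gbp4, Gbp5, Gbp6, Gbp7, Gbp8, Gbp9, Gbp10 and Gbp11. All 10 were found in both tables, among 56980 genes in the table of the IFNγ experiment and 55414 in that of the untreated experiment. The cells were KPC1199, a mouse line established from pancreatic tumors of KPC mice, in which a Pdx-driven Cre recombinase activates mutant alleles in the pancreas, mutant Trp53 among them, so that every group carried those alleles. They had received a lentiviral CRISPR-Cas9 vector with a non-targeting guide (sgCtrL) or with 1 guide against Sin3B (Sin3Bsg1), a scaffold of histone deacetylase complexes, and had been selected with puromycin. The untreated experiment held 2 libraries of each guide. The IFNγ experiment held 3 libraries of each guide kept without IFNγ and 3 treated with IFNγ at 10 ng/ml for 24 h. Both experiments had a single Sin3B guide, and neither the labels nor the methods say whether replicate libraries came from separate cultures, so p-values measure the spread between these libraries only.

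GBPs are large GTPases of the dynamin superfamily that interferons induce, and they belong to the defense of a cell against microbes living inside it. They bind to the membranes of vacuoles and bacteria, open them, and so expose lipopolysaccharide and DNA to inflammasomes. IFNγ signals through its receptor and the kinases Jak1 and Jak2 to promoters that hold the gamma-activated site (GAS), and it induces Irf1, a factor that binds the interferon-stimulated response element (ISRE). Mouse GBP genes lie in 2 clusters, and the 10 members fell into both.

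Total counts ran from 18128055 to 27056903 per library in the IFNγ experiment and from 29683181 to 32311721 in the untreated one. Sin3b itself fell by 1.28 on the log2 scale in Sin3Bsg1 cells of the untreated experiment, fell by 1.24 without IFNγ and fell by 1.22 with IFNγ, and its level did not overlap between the guides in any of them. All 7 epithelial tumor markers examined were above 1 CPM (the counts-per-million value, scaled for library composition) in every group, no endothelial marker was, and of 8 leukocyte markers Cd14 was the only 1 above it. Of 6 fibroblast markers, Pdgfra and Pdgfrb were above 1 CPM, and the list summed to 100 to 100.4 CPM in untreated sgCtrL libraries against 30.1 to 33.2 in untreated Sin3Bsg1 libraries. The same sum was 262 to 268 CPM in sgCtrL and 224 to 234 in Sin3Bsg1 without IFNγ, and 184 to 186 and 161 to 172 with IFNγ, and its part in the results was not tested. Among the libraries, replicate 1 of IFNγ-treated sgCtrL stood off from its group, at a root mean square log2 difference over genes of 0.265 and 0.249 from replicates 2 and 3, which differed from each other by 0.134. Replicate 1 of IFNγ-treated Sin3Bsg1 lay apart to a lesser degree, at 0.184 and 0.190 from replicates 2 and 3, which differed by 0.126. The rises of Gbp2, Gbp3, Gbp6, Gbp7 and Gbp9 in sgCtrL are given with and without replicate 1 of treated sgCtrL. So are the difference of the rises for Gbp9 and the calls in the comparison of the treated groups.

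Gbp5, Gbp7, Gbp3 and Gbp2 follow each other on the forward strand of chromosome 3, from 142199739 to 142343779 in the GRCm39 build (Gbp5 at chr3:142199739-142228105, Gbp7 at chr3:142236044-142255910, Gbp3 at chr3:142265731-142278979, Gbp2 at chr3:142326349-142343779). The other 6 lie on the reverse strand of chromosome 5, with Gbp8 at chr5:105162016-105287452, Gbp9 at chr5:105224332-105287452, Gbp4 at chr5:105263633-105287609, Gbp10 at chr5:105362773-105412666, Gbp6 at chr5:105418568-105443751 and Gbp11 at chr5:105470908-105494338. The annotated spans of Gbp4, Gbp8 and Gbp9 overlap each other, but the exons of each pair share only 107 bases.

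Promoter sequences from RefSeq, on the GRCm38.p6 build, were matched for 4 of the 10 members, all on chromosome 3. They are shown because they were the ones matched, and IFNγ is known to act through elements such as those marked. All 10 members rose with IFNγ, and no window of a chromosome 5 member was available for comparison. A part of the elements in the rise was not tested. Each window runs from 250 bases before to 50 bases after the annotated start, 5′ to 3′ on the forward strand. Capitals mark matches, on either strand, to TTCNNNGAA (the GAS pattern) or to GAAANNGAAA (the core of the ISRE, which reads TTTCNNTTTC on the other strand). The windows are chr3:142496684-142496983 for Gbp5, chr3:142530086-142530385 for Gbp7, chr3:142559794-142560093 for Gbp3 and chr3:142620413-142620712 for Gbp2.
Gbp5 promoter: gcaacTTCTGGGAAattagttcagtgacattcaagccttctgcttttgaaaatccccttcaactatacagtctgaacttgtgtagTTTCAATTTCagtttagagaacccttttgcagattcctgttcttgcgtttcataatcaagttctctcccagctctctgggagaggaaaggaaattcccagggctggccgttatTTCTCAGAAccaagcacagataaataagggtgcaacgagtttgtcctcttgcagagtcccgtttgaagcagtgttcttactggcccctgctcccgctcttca
Gbp7 promoter: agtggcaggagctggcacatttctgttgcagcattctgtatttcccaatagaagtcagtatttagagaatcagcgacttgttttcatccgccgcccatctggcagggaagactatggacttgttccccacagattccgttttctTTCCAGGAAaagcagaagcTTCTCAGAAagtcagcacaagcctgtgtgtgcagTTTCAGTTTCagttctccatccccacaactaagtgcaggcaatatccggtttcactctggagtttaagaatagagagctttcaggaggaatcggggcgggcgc
Gbp3 promoter: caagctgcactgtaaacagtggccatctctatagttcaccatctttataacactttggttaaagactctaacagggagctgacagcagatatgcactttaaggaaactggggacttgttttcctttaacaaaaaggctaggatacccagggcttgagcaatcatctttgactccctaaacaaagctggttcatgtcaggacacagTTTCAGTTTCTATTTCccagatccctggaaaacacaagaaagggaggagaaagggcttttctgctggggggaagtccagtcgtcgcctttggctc
Gbp2 promoter: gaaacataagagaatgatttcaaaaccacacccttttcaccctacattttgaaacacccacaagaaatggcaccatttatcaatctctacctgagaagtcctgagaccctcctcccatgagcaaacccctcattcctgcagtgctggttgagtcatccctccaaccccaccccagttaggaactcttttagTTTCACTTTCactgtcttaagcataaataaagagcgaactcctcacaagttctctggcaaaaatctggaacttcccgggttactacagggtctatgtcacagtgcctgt
All 4 windows held the ISRE core, which was found in 3.443% of 32851 promoter windows of the same length. The match lay 165 bases before the start in Gbp5, 53 in Gbp7 and 59 in Gbp2, and Gbp3 held 2 overlapping matches 45 and 39 bases before it. The GAS pattern, found in 8.298% of windows, was present in 2 copies in Gbp5, 245 and 52 bases before the start, and in 2 copies in Gbp7, 106 and 87 bases before it. It was not found in these windows of Gbp3 and Gbp2, and 0.454% of all windows held both patterns. A further annotated start of Gbp3, at chr3:142560106-142560405, held neither and is not printed. A match describes letters, and binding was not measured here.

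Paralogs can share reads, so the transcript sequences of the members were compared in windows of 100 bases over all their annotated transcripts. Gbp2 shared no window with any other gene, Gbp5 shared none with a member, and Gbp3 and Gbp7 shared 24 windows with each other, which is 0.47% of Gbp3 and 0.37% of Gbp7. The Gbp6 and Gbp10 pair stood apart, with 3191 windows in common, or 41.14% of Gbp6 and 51.42% of Gbp10, and an identical stretch of 1185 bases. Among the remaining members, the share found in other members ran from 0.91% in Gbp9 to 5.13% in Gbp11. A predicted gene that is not a member, Gm43302, named after its values were seen, shared 4161 windows with the members, and windows found in other genes made up 47.49% of Gbp6 and 51.43% of Gbp10. Another, Gm43802, shared 538 windows with Gbp7, or 8.31% of it. The deposited counts need not be whole, and that of Gbp6 was not whole in 12 of 12 libraries of the IFNγ experiment and that of Gbp10 in 11, whereas Gbp2 was whole in all 12. Gbp6 and Gbp10 are therefore given alone and summed.

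**Figure D1:**
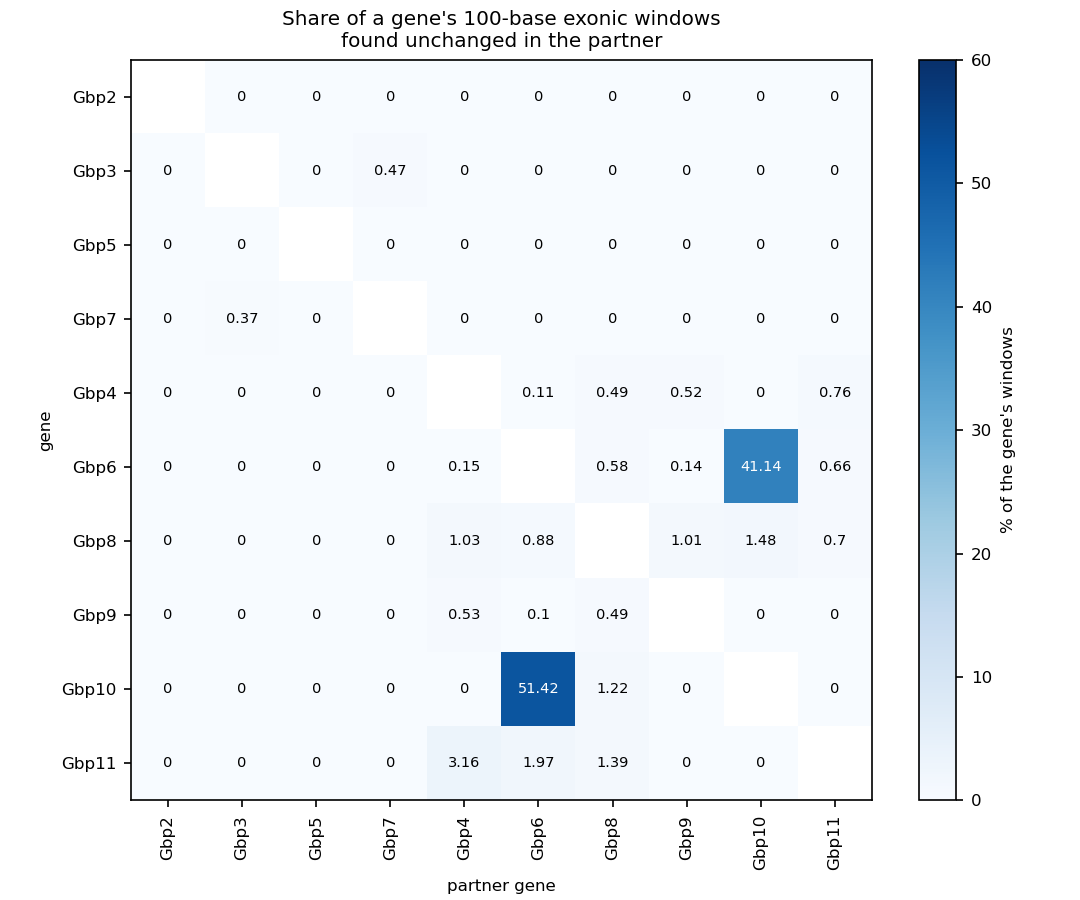
Share of each gene's 100-base exonic windows (rows) that occur unchanged in each partner (columns), in percent, from the GENCODE vM39 annotation of GRCm39. Gbp6 and Gbp10 share 41.14% and 51.42% of their windows, and no other pair exceeds 3.16%.

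Without IFNγ the family was barely transcribed. Its 10 members together took 0.00343 to 0.00357% of the counts of sgCtrL libraries in the IFNγ experiment and 0.00302 to 0.0034% of those of Sin3Bsg1 libraries. In the untreated experiment they took 0.00481 and 0.00447% in the 2 sgCtrL libraries and 0.00202 and 0.00207% in the 2 Sin3Bsg1 libraries. Only 5 of the 10 members (Gbp2, Gbp7, Gbp4, Gbp6 and Gbp9) had enough counts to be tested there, while all 10 passed the count filter of the IFNγ experiment, some of them only through the groups treated with IFNγ. Compared per length, on the transcripts-per-million scale (TPM), Gbp9, a chromosome 5 member that coats vacuoles of intracellular parasites, had the highest level in untreated sgCtrL cells, at 15.1 and 14.5 TPM. It was followed by Gbp6 at 6.47 and 5.86 TPM and, with overlapping ranges, by Gbp7 and Gbp2 at mean levels of 1.95 and 1.78 TPM, and the other 6 were at 0.59 TPM or less in each library.

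Gbp9, Gbp2, Gbp6 and Gbp7 also led in sgCtrL cells kept without IFNγ. Gbp9 was at 7.97, 7.49 and 8.66 TPM, Gbp2 at 6.58, 5.71 and 6.35 TPM, and Gbp6 and Gbp7 had overlapping ranges around means of 4.31 and 3.63 TPM. In Sin3Bsg1 cells without IFNγ the order differed: Gbp2 came first at 9.53, 11 and 9.16 TPM, and Gbp7, Gbp9 and Gbp6 followed at means of 4.24, 4.2 and 3.39 TPM, each overlapping the next. Gbp3 held rank 5 in both genotypes, and the ranges of the 5 members below it each overlapped that of the next.

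**Figure D2:**
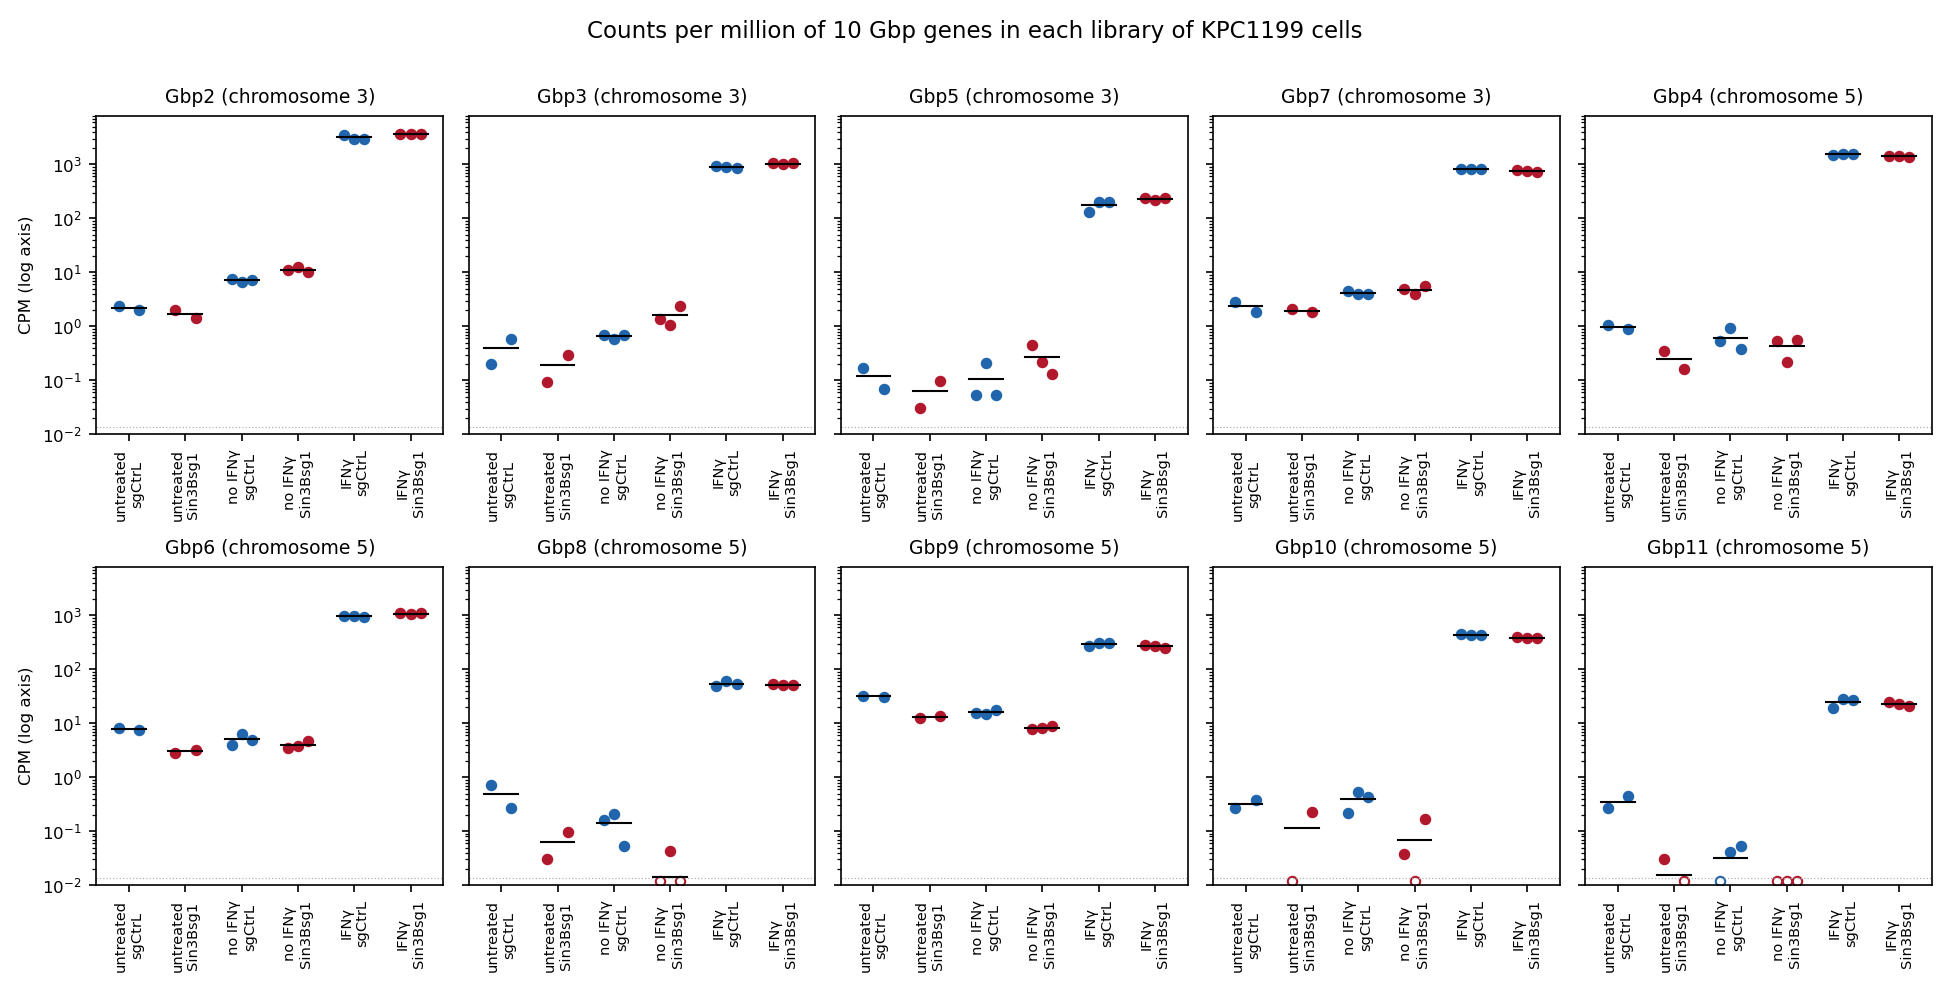
Level of each Gbp gene in every library, in CPM on a log axis, with sgCtrL in blue, Sin3Bsg1 in red and the group mean as a line. Open circles under the dotted line are libraries with 0 counts. Points were placed from 2 libraries per untreated group and 3 per other group, and each of the 10 panels shows the IFNγ groups above every group without IFNγ.

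In untreated cells the question was whether loss of Sin3B shifted the basal level of the family. Members on chromosome 5 were lower in Sin3Bsg1 cells: Gbp4, Gbp6 and Gbp9, all 3 of that cluster that could be tested, fell, and neither Gbp2 nor Gbp7 passed the threshold. Among all 14589 genes tested, 16.0% were lower and 15.1% higher at an adjusted p under 0.05 (edgeR quasi-likelihood test, two-sided). Gbp9 was at 32.1 and 31 CPM in sgCtrL and at 12.7 and 13.4 CPM in Sin3Bsg1, so the guides did not overlap. Its log2 fold change was -1.27 ± 0.08 (SE, 2 libraries a group), with an adjusted p of 2.43e-09. In bulk libraries such as these, fewer expressing cells and less RNA per cell cannot be told apart.

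Gbp6, which has been tied to resistance to intracellular mycobacteria, stood at 8.2 and 7.45 CPM in sgCtrL against 2.83 and 3.17 CPM in Sin3Bsg1. It changed by -1.38 ± 0.16 on the log2 scale (adjusted p = 3.95e-06), and the sum of Gbp6 and Gbp10 by -1.39, a value without a test, or -1.36 with Gm43302 added. Gbp4, a regulator that restrains the interferon factor Irf7, was at 1.08 and 0.885 CPM against 0.343 and 0.162 CPM, a change of -1.93 ± 0.50 (adjusted p = 0.00706). That call rests on 58 counts in sgCtrL and 16 in Sin3Bsg1, and it was lost without replicate 1 of sgCtrL (adjusted p = 0.081) or without replicate 2 of Sin3Bsg1 (adjusted p = 0.0799).

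The untested chromosome 5 members had few counts. Gbp8 had 29 counts in sgCtrL and 4 in Sin3Bsg1, a ratio of Sin3Bsg1 to sgCtrL of 0.13 with a 95% exact counting interval from 0.0331 to 0.369. Gbp11 had 21 counts and 1 count, a ratio of 0.0447 with an interval from 0.00108 to 0.278. Gbp10 had 19 and 7 counts, a ratio of 0.346 with an interval from 0.123 to 0.859. In each of the latter, and in Gbp4, Gbp6 and Gbp9, both Sin3Bsg1 libraries were below both sgCtrL libraries, against 31.4% of all genes tested. For Gbp10 this did not hold once Gm43302 was added: the sums were 0.538 and 1.57 CPM in sgCtrL and 0.343 and 0.551 CPM in Sin3Bsg1, which overlap. The log2 ratio of these sums was -1.24, and -0.27 without replicate 2 of sgCtrL. Such intervals cover counting error only.

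On chromosome 3, Gbp2, a lipid-anchored GBP that coats pathogen vacuoles, was at 2.35 and 2.01 CPM in sgCtrL and 1.99 and 1.46 CPM in Sin3Bsg1. These did not overlap, but the change of -0.34 ± 0.27 did not pass the threshold (adjusted p = 0.391). Gbp7 changed by -0.27 ± 0.27 (adjusted p = 0.503), with overlapping libraries, and its sign turned to 0.07 without replicate 1 of sgCtrL. Gbp3 had 23 and 12 counts, and Gbp5 had 7 and 4, so depth did not allow a difference to be read in either. Added up, the 6 chromosome 5 members were at 42.6 and 40.4 CPM in sgCtrL and at 16 and 17 CPM in Sin3Bsg1, and the 4 on chromosome 3 were at 5.58 and 4.53 CPM and at 4.23 and 3.66 CPM. Gbp9 alone made up most of the chromosome 5 sum in each of these libraries.

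In the IFNγ experiment the cells kept without IFNγ gave a second look at the basal level, in separate libraries. Here members of the clusters went opposite ways. Gbp2 and Gbp3 on chromosome 3 were higher in Sin3Bsg1, and Gbp8, Gbp9 and Gbp10 on chromosome 5 were lower, although Gbp8 and Gbp10 rested on few counts, while Gbp4, Gbp5, Gbp6, Gbp7 and Gbp11 did not pass the threshold. Over the 14913 genes tested 7.89% were higher and 9.33% lower. Gbp2 was at 7.5, 6.64 and 7.27 CPM in sgCtrL and at 10.9, 12.5 and 10.3 CPM in Sin3Bsg1, without overlap. Its log2 fold change was 0.66 ± 0.10 (adjusted p = 1.50e-04).

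Gbp3, a GBP with a part in the killing of cytosolic bacteria, was at 0.701, 0.584 and 0.695 CPM in sgCtrL against 1.37, 1.04 and 2.37 CPM in Sin3Bsg1, a change of 1.27 ± 0.27 (adjusted p = 0.00376). Gbp5, which promotes assembly of the NLRP3 inflammasome, had 7 counts in sgCtrL and 20 in Sin3Bsg1, and its libraries overlapped (1.23 ± 1.02, adjusted p = 0.473). Gbp7, linked to the delivery of oxidase subunits to vacuoles, was at 4.53, 3.97 and 3.9 CPM against 4.87, 3.92 and 5.5 CPM, with overlap (0.21 ± 0.11, adjusted p = 0.239). Adding Gm43802 to Gbp7 left the value at 0.22.

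Gbp9 was again lower in Sin3Bsg1, with 15.8, 15.2 and 17.3 CPM in sgCtrL and 7.73, 8.05 and 9.07 CPM in Sin3Bsg1. The change of -0.96 ± 0.10 passed the threshold (adjusted p = 3.41e-06), and it stayed between -1.02 and -0.90 when any 1 of the 12 libraries was left out. Gbp6 was at 4.04, 6.47 and 4.87 CPM and at 3.46, 3.79 and 4.69 CPM, which overlap (-0.39 ± 0.14, adjusted p = 0.0675). That value lay close to the threshold: Gbp6 was called lower by DESeq2 and in 3 of the 12 fits that left out 1 library, those without replicate 1 of sgCtrL (adjusted p = 0.0133), replicate 3 of Sin3Bsg1 (adjusted p = 0.0283) or replicate 1 of IFNγ-treated sgCtrL (adjusted p = 0.0478). Gbp4 had 39 and 32 counts and overlapped as well (-0.52 ± 0.32, adjusted p = 0.306).

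Gbp10, another GBP active against intracellular bacteria, had 4, 13 and 8 counts in sgCtrL and 1, 0 and 4 in Sin3Bsg1, in the order of the replicates. The fit called it lower (-2.47 ± 0.55, adjusted p = 0.00525), with a count ratio of 0.169 and a counting interval from 0.0505 to 0.449. The gene that shares its sequence moved the other way: Gm43302 had 0 counts in all 3 sgCtrL libraries and 17, 22 and 0 counts in Sin3Bsg1. Summed with Gm43302, Gbp10 changed by 0.61 with an SE of 0.86, and the 3 genes Gbp6, Gbp10 and Gm43302 together changed by -0.27 with an SE of 0.22, both values without a test. The direction of Gbp10 thus depended on whether reads of Gm43302 were counted with it, and its fall is uncertain.

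Gbp8 had 3, 5 and 1 counts in sgCtrL and 0, 1 and 0 in Sin3Bsg1. It passed the threshold by a small margin (adjusted p = 0.044) and did not in DESeq2 (adjusted p = 0.0561), and the count ratio was 0.0938 with an interval from 0.00214 to 0.677. The call was lost in 8 of the 12 fits that left out 1 library, with adjusted p from 0.0528 to 0.178. These libraries were replicates 1 and 2 of sgCtrL and 1 and 3 of Sin3Bsg1 without IFNγ, and replicate 3 of sgCtrL and all 3 of Sin3Bsg1 with IFNγ. Gbp11 had 2 counts in sgCtrL and 0 in Sin3Bsg1, where the depth allows up to 0.0414 CPM, so no difference could be read.

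Library by library, 2 members (Gbp2 and Gbp3) were higher in every Sin3Bsg1 library than in any sgCtrL library, against 18.3% of all genes. There were 3 members (Gbp8, Gbp9 and Gbp10) lower without overlap, against 20.9%. Of these only Gbp9 was also apart in counts. The closest libraries of the guides had 1 count each in Gbp8 and 4 counts each in Gbp10, so library scaling alone set them apart. Summed over the cluster, the chromosome 3 members were at 12.8, 11.4 and 11.9 CPM in sgCtrL and at 17.6, 17.7 and 18.3 CPM in Sin3Bsg1. The chromosome 5 members were at 20.8, 23.3 and 23 CPM and at 11.8, 12.1 and 14.5 CPM. Most of each sum was a single member. Gbp2 alone had means of 7.14 CPM in sgCtrL and 11.2 in Sin3Bsg1, and Gbp9 alone had means of 16.1 and 8.28 CPM. Thus Gbp9 was lower in Sin3Bsg1 cells of both experiments, whereas Gbp2 was higher in 1 and, without passing the test, lower in the other. No test joined the experiments, which were normalized apart.

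**Figure D3:**
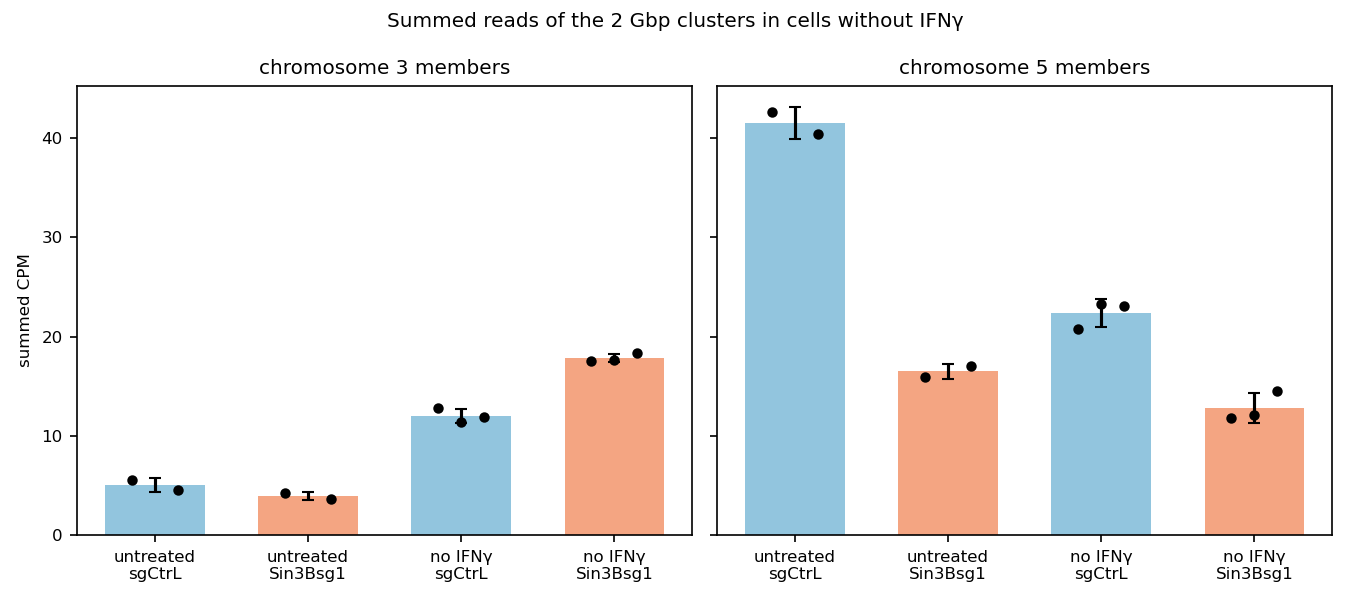
Summed CPM of the 4 chromosome 3 members (left) and the 6 chromosome 5 members (right) in the groups without IFNγ. Bars are means with SD (sgCtrL blue, Sin3Bsg1 orange), points are libraries, and the experiments were normalized apart. The chromosome 5 sum was lower in Sin3Bsg1 in both experiments, and the chromosome 3 sum was higher in the IFNγ experiment (18.3 CPM at most in Sin3Bsg1, 12.8 in sgCtrL) and lower in the untreated one. Gbp9 made up most of the chromosome 5 sum in both experiments, and Gbp2 most of the chromosome 3 sum in the IFNγ experiment.

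IFNγ raised all 10 members in both genotypes. Together they went to 0.809 to 0.830% of the counts in sgCtrL libraries and to 0.854 to 0.881% in Sin3Bsg1 libraries. The 5 members with at least 10 counts in every library (Gbp2, Gbp3, Gbp6, Gbp7 and Gbp9) were called higher at an adjusted p under 0.05 in both genotypes, where 15.7% of all genes were higher in sgCtrL and 16.1% in Sin3Bsg1. The other 5 (Gbp4, Gbp5, Gbp8, Gbp10 and Gbp11) were also called, but each had fewer than 10 counts in some library without IFNγ. All of these but Gbp4 could pass the count filter only through the treated libraries, which fixed their direction, so the rises of these 5 are given as values. Without replicate 1 of treated sgCtrL the rise in sgCtrL was 8.70 for Gbp2, 10.39 for Gbp3, 7.51 for Gbp6, 7.63 for Gbp7 and 4.25 for Gbp9, on the log2 scale. Gbp2 reached the highest counts of the family: its 7.5, 6.64 and 7.27 CPM became 3530, 2993 and 2978 CPM in sgCtrL, and its 10.9, 12.5 and 10.3 CPM became 3678, 3596 and 3737 CPM in Sin3Bsg1. The log2 rise was 8.80 ± 0.09 and 8.35 ± 0.09 (adjusted p = 6.90e-19 and 6.69e-19).

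In sgCtrL the largest fitted rise was that of Gbp4. It went from 0.539, 0.918 and 0.374 CPM to 1497, 1561 and 1557 CPM in sgCtrL, and from 0.533, 0.218 and 0.559 CPM to 1420, 1407 and 1393 CPM in Sin3Bsg1. These are log2 rises of 11.23 ± 0.13 and 11.62 ± 0.13. As a ratio, the counting interval of Gbp4 in sgCtrL (1769 to 3401) overlapped those of Gbp3 (1019 to 1942), Gbp5 (769 to 3944) and Gbp11 (215 to 6437). The order of these members is therefore not settled. Gbp3 reached 941, 912 and 869 CPM in sgCtrL and 1043, 1004 and 1070 CPM in Sin3Bsg1, for rises of 10.43 ± 0.14 and 9.35 ± 0.13, the second from a higher start.

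Gbp9, the member with the most counts without IFNγ in sgCtrL, rose least. Its 15.8, 15.2 and 17.3 CPM became 265, 312 and 304 CPM in sgCtrL, and its 7.73, 8.05 and 9.07 CPM became 284, 268 and 252 CPM in Sin3Bsg1. That is a rise of 4.19 ± 0.08 in sgCtrL and 5.02 ± 0.09 in Sin3Bsg1 (adjusted p = 5.99e-16 and 1.18e-16), and the IFNγ libraries of the genotypes overlap.

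Gbp7 and Gbp6 rose from a few CPM to between 728 and 1083 CPM. Gbp7 reached 826, 806 and 834 CPM in sgCtrL and 797, 763 and 728 CPM in Sin3Bsg1, for rises of 7.64 ± 0.09 and 7.32 ± 0.09. Gbp6 reached 970, 970 and 951 CPM in sgCtrL and 1083, 1073 and 1083 CPM in Sin3Bsg1, for rises of 7.53 ± 0.11 and 8.09 ± 0.11. The pooled reads of Gbp6 with Gbp10 rose by 7.99 and 8.50, and with Gm43302 by 8.16 and 8.46.

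Gbp5 reached 132, 200 and 204 CPM in sgCtrL and 241, 221 and 234 CPM in Sin3Bsg1, rises of 10.54 ± 0.29 and 9.69 ± 0.25 from 7 and 20 counts. Gbp10 reached 448, 427 and 434 CPM and 392, 387 and 373 CPM, rises of 10.04 ± 0.14 and 12.33 ± 0.16, of which the second starts from 5 counts. Pooled with Gm43302, Gbp10 rose by 10.62 in sgCtrL and 9.79 in Sin3Bsg1, so the larger rise moved to the other genotype.

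Gbp8 and Gbp11 were the scarcest members even after IFNγ. Gbp8 reached 48.6, 59.6 and 53.8 CPM in sgCtrL, a rise of 8.47 ± 0.18, and 52.4, 50.8 and 50.5 CPM in Sin3Bsg1. That second rise starts from 1 count, a ratio of 3714 with a counting interval from 666 to 146750. Gbp11 reached 19.4, 28.3 and 27.5 CPM in sgCtrL from 2 counts, a ratio of 779 with an interval from 215 to 6437. In Sin3Bsg1 it reached 24.3, 22.9 and 21.3 CPM from 0 counts, which is at least 553-fold higher, taken against 3 counts over the group.

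**Figure D4:**
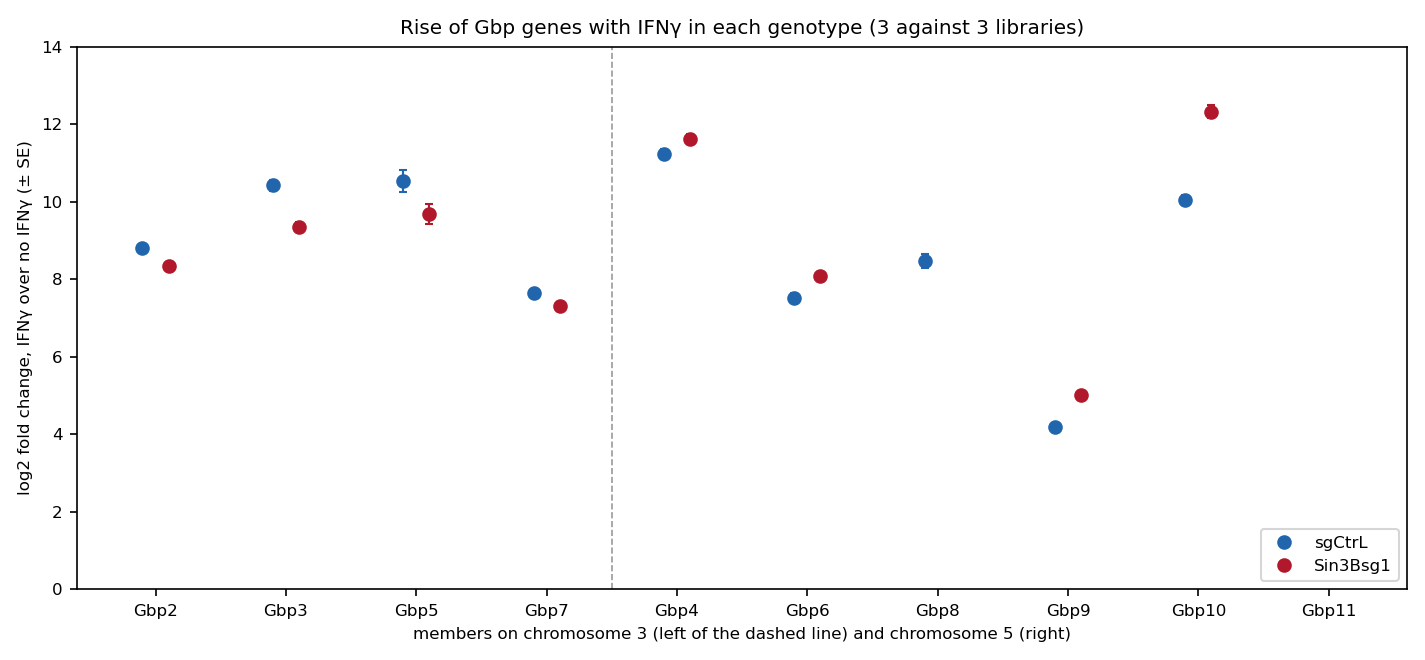
Log2 fold change of each Gbp gene with IFNγ over no IFNγ in sgCtrL (blue) and Sin3Bsg1 (red), with SE from the edgeR fit of 12 libraries. Values against a group with no library above 3 counts (Gbp11 in both genotypes, Gbp8 in Sin3Bsg1) are left out. The rise was larger in sgCtrL for the 4 chromosome 3 members and larger in Sin3Bsg1 for Gbp4, Gbp6, Gbp9 and Gbp10, and only Gbp9 passed the test of that difference in this fit. For Gbp10 the larger rise moved to sgCtrL once Gm43302 was counted with it. The difference of Gbp4 ran from -0.081 to 0.63 over fits that left out 1 library, and that of Gbp5 was smaller than its SE.

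Per length, IFNγ left the family in nearly the same order in both genotypes. Gbp2 led at 2929, 2431 and 2482 TPM in sgCtrL and 3155, 2944 and 3007 TPM in Sin3Bsg1, more than any other member in any library. Gbp6, Gbp3, Gbp4 and Gbp7 formed a group with means between 684 and 768 TPM in sgCtrL and between 636 and 862 TPM in Sin3Bsg1. Within it Gbp3 overlapped Gbp4 and Gbp4 overlapped Gbp7 in sgCtrL, and Gbp6 overlapped Gbp3 and Gbp4 overlapped Gbp7 in Sin3Bsg1. Gbp10 followed at 257 and 226 TPM, then Gbp9 at 139 and 127 and Gbp5 at 98.6 and 129, which overlap each other in Sin3Bsg1 and not in sgCtrL, then Gbp8 at 45.6 and 43.4 and Gbp11 at 19.3 and 17.7. Gbp9, at rank 1 without IFNγ in sgCtrL, held rank 7 with it.

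Whether loss of Sin3B changed the level under IFNγ was asked by comparing the treated groups. Differences were small: Gbp2 and Gbp5, both on chromosome 3, were higher in Sin3Bsg1, against 8.62% of all genes, and no member was lower at the threshold, against 7.90%. Gbp2 had 3530, 2993 and 2978 CPM in sgCtrL and 3678, 3596 and 3737 CPM in Sin3Bsg1, a log2 fold change of 0.21 ± 0.06 (adjusted p = 0.0304). Gbp5 had 132, 200 and 204 CPM against 241, 221 and 234 CPM, a change of 0.38 ± 0.12 (adjusted p = 0.0445) that DESeq2 did not call (adjusted p = 0.267), and the lowest value is the replicate 1 of sgCtrL that lay apart.

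Without that library Gbp2 changed by 0.31 (adjusted p = 1.90e-05) and Gbp5 by 0.21. Without it 4 members were higher, Gbp3 (adjusted p = 0.0104) and Gbp6 (adjusted p = 0.0423) among them, and 2 were lower, Gbp9 (adjusted p = 0.0189) and Gbp11 (adjusted p = 0.0405). The call of Gbp2 was lost when any of the other 5 treated libraries was left out (adjusted p from 0.0532 to 0.115). That of Gbp5 was lost without any of the 3 treated Sin3Bsg1 libraries or of the 6 libraries kept without IFNγ (adjusted p from 0.0507 to 0.137).

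The other 8 members did not pass the threshold, with log2 fold changes from -0.18 ± 0.07 in Gbp10 (adjusted p = 0.0788) to 0.20 ± 0.08 in Gbp3 (adjusted p = 0.103). Gbp6 was at 0.16 ± 0.07 (adjusted p = 0.16), and its sum with Gbp10 at 0.06. DESeq2 called Gbp3 (adjusted p = 0.00235) and Gbp6 (adjusted p = 0.00172) higher, and Gbp4 (adjusted p = 0.00455) and Gbp10 (adjusted p = 8.72e-04) lower. Gbp7 (-0.11 ± 0.06), Gbp4 (-0.13 ± 0.07), Gbp9 (-0.13 ± 0.07), Gbp11 (-0.14 ± 0.12) and Gbp8 (-0.08 ± 0.08) were at or below 0. The median over the 4 chromosome 3 members was 0.20 and over the 6 chromosome 5 members -0.13, beside 0.00 for all genes. Without overlap between the genotypes, Gbp2, Gbp3, Gbp5 and Gbp6 were higher, against 15.4% of genes, and Gbp4, Gbp7 and Gbp10 lower, against 14.9%.

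**Figure D5:**
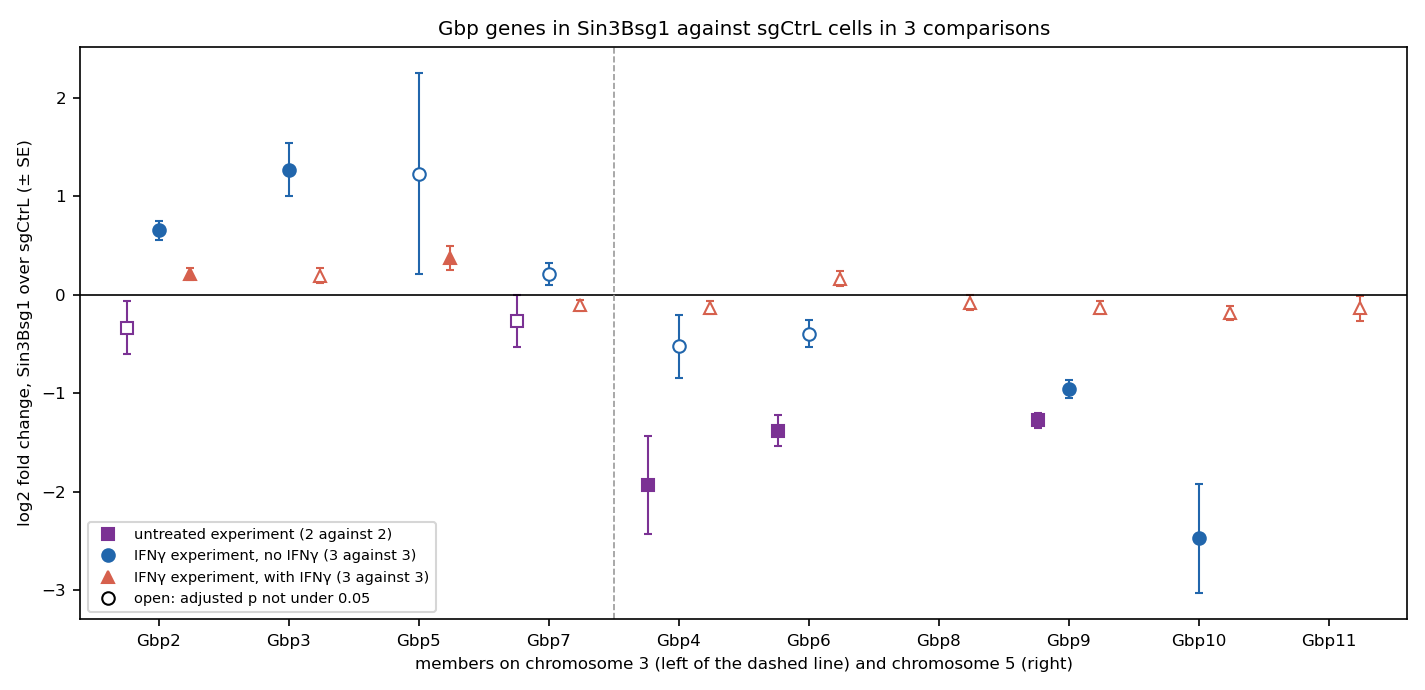
Log2 fold change of Sin3Bsg1 over sgCtrL for each member, with SE, in untreated cells (squares), without IFNγ (circles) and with IFNγ (triangles). Filled symbols passed an adjusted p of 0.05, and members not tested, or with no library above 3 counts in a group, are left out. Changes with IFNγ lie between -0.18 and 0.38, while those without it spread from -2.47 to 1.27 and rest on far fewer counts. The -2.47 is Gbp10, with 5 counts in Sin3Bsg1 and 25 in sgCtrL, and its direction depended on whether Gm43302 was counted with it.

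The test of the difference between the inductions asked whether the genotypes responded unequally. Over all genes 0.114% passed in either direction. Among the 8 members that could be fitted, Gbp9 passed, with a rise larger in Sin3Bsg1 by 0.82 ± 0.12 on the log2 scale (adjusted p = 0.0171). Over the 12 fits that left out 1 library the value stayed between 0.75 and 0.89, and it was 0.76 without replicate 1 of treated sgCtrL (adjusted p = 0.00136). The call was lost in 5 of them, those without replicate 1 or 3 of sgCtrL or 1 or 2 of Sin3Bsg1 kept without IFNγ, or without replicate 2 of treated Sin3Bsg1 (adjusted p from 0.0515 to 0.0844). The unequal rise went with the unequal start: Gbp9 without IFNγ was at 7.73 to 9.07 CPM in Sin3Bsg1 and 15.2 to 17.3 CPM in sgCtrL, and with IFNγ the ranges overlapped.

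For Gbp2 the difference was -0.44 ± 0.12 (adjusted p = 0.381), for Gbp3 -1.08 ± 0.28 (adjusted p = 0.381), for Gbp7 -0.32 ± 0.13 (adjusted p = 0.854) and for Gbp5 -0.85 ± 1.03 (adjusted p = 0.984), all smaller in Sin3Bsg1 and not called. For Gbp6 it was 0.56 ± 0.16 (adjusted p = 0.494), for Gbp10 2.29 ± 0.56 (adjusted p = 0.308) and for Gbp4 0.39 ± 0.32 (adjusted p = 0.984). Of these, DESeq2 called the differences of Gbp3 (adjusted p = 0.0248) and Gbp6 (adjusted p = 0.0117). Without the count filter edgeR called those of Gbp2 (adjusted p = 1.58e-04), Gbp3 (adjusted p = 0.00659), Gbp6 (adjusted p = 8.52e-04) and Gbp10 (adjusted p = 0.0277). The Gbp10 value rests on 5 counts in Sin3Bsg1 without IFNγ. Once Gm43302 was counted with Gbp10, the larger rise was in sgCtrL. Gbp8 and Gbp11 have no value because a group without IFNγ had no library above 3 counts.

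Of 12 genes of IFNγ signaling, the feedback inhibitors Socs1 and Socs3 among them, 11 were tested. With IFNγ 6 were higher and 2 lower in each genotype. Over all genes 15.7% were higher and 14.5% lower in sgCtrL, and 16.1% and 12.3% in Sin3Bsg1. Irf1 rose by 3.51 ± 0.04 in sgCtrL and 3.57 ± 0.04 in Sin3Bsg1 on the log2 scale. Batf2, a partner of Irf1, had the largest rise, from 1 count to 2706 in sgCtrL and from 0 to 4176 in Sin3Bsg1, so it passed the count filter through the treated libraries. Ifngr2, a receptor chain, fell by 0.30 and 0.33, the largest fall.

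Between the genotypes, Irf1 was not called in untreated cells, without IFNγ or with it (-0.13 ± 0.05, 0.01 ± 0.04 and 0.06 ± 0.04, with adjusted p of 0.0558, 0.916 and 0.286). The list had 2 higher and 2 lower of 10 tested in untreated cells, 1 higher and 1 lower of 11 without IFNγ, and 2 higher and 1 lower with it. These are few genes beside shares over all genes of 15.1% higher and 16.0% lower in untreated cells, 7.89% and 9.33% without IFNγ and 8.62% and 7.90% with it, and nothing particular to this list or the next 3 is read from such counts. In it, Jak2 was the largest rise in untreated cells (0.24) and without IFNγ (0.29), with Socs3 the only fall without IFNγ (-0.22), and Batf2 the largest rise with IFNγ (0.56).

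The other interferon-induced GTPases, which work beside GBPs at vacuoles, were also higher with IFNγ. Of 16 listed, 14 were tested, and 14 were called higher in each genotype, against 15.7% of all genes in sgCtrL and 16.1% in Sin3Bsg1. Of the 14, Tgtp1, Ifi47, Gm12250 and Mx2 had fewer than 10 counts in some library without IFNγ, where the count filter favors genes high with IFNγ. The other 10 had at least 10 counts in each. Tgtp1 rose most, by 12.04 ± 0.19 and 12.45 ± 0.20. Between the genotypes, Iigp1 was the largest fall both in untreated cells (-1.20 ± 0.07, adjusted p = 3.14e-09) and without IFNγ (-1.28 ± 0.07, adjusted p = 3.12e-09). It was also the 1 gene of this list whose induction was called different, being larger in Sin3Bsg1 by 1.12 ± 0.09 (adjusted p = 2.05e-05). The list as a whole had 2 higher and 3 lower of 11 tested in untreated cells, 1 higher and 3 lower of 14 without IFNγ, and 1 higher and 1 lower of 14 with it. The largest rises were 9930111J21Rik1 in untreated cells (1.67), Irgm1 without IFNγ (0.27) and Gm12250 with it (0.23), and the only fall with IFNγ was Tgtp2 (-0.23). Gbp2b, a further GBP gene on this list, had 0 counts in every group but IFNγ-treated sgCtrL, where it had 3.

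The machinery that loads GBPs onto membranes and anchors them by lipids was followed in 15 genes of ATG8 conjugation and prenylation. With IFNγ 3 were higher and 4 lower in sgCtrL, where 30.2% of all genes were called in either direction, and 1 was higher and 2 lower in Sin3Bsg1, where 28.4% were, with Atg3 (0.32 and 0.31) and Map1lc3b (-0.38 and -0.36) at the ends. Between the genotypes 3 were lower and none higher in untreated cells, 1 was higher and 2 lower without IFNγ, and 1 was higher and 3 lower with it. Map1lc3a was the largest fall each time (-0.36, -0.59 and -0.65), Atg7 the rise without IFNγ (0.28) and Atg16l1 that with it (0.20).

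Of 15 genes that act after GBPs, such as caspases and gasdermin D, 13 were tested in the IFNγ experiment. With IFNγ 8 rose in each genotype, where 15.7% of all genes were higher in sgCtrL and 16.1% in Sin3Bsg1. In sgCtrL 2 fell, where 14.5% of all genes were lower, and none fell in Sin3Bsg1, where 12.3% were. Zbp1, a nucleic acid sensor, had the largest value, 8.73 ± 0.13 and 8.93 ± 0.13. It had fewer than 10 counts in each library without IFNγ, where the count filter favors genes high with IFNγ. Aim2, a DNA sensor, fell by 0.21 in sgCtrL. Between the genotypes 2 of 11 were higher, where 15.1% of all genes were, and none lower in untreated cells, with Gsdmd the largest rise (0.44). Without IFNγ 2 were higher and 3 lower, from Lgals3 (0.31) to Casp4 (-0.50), and with IFNγ 3 were higher and 1 lower, from Trim21 (0.27) to Casp1 (-0.42).

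The 5 genes outside the family whose log2 CPM followed the members' mean most closely over the 12 libraries of the IFNγ experiment were Apol6, Gm12185, Apol9a, Irf1 and Irgm2. Their Pearson correlations with that mean ran from 0.99956 to 0.99972 among 10493 genes. The points fall into cells with and without IFNγ, so these values say mainly how the 2 treatments differ. The members themselves correlated with the mean at 0.99093 (Gbp9) to 0.99957 (Gbp4).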

How the data were processed

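RNA-seq of KPC1199 cells was analysed in 16 libraries, 4 of an untreated experiment and 12 of an IFNγ experiment. The authors deposited a table of estimated counts per gene for each experiment, in which some counts are not whole, with a gene length. Per the labels, the processing notes name fastp, HISAT2, StringTie, DESeq2 and the mm39 build, with no order, whereas the study's methods name the mm9 build and counts of uniquely mapped reads. Versions, annotation release and strand setting are not given in the sources used here. The columns of the control are headed with lacZ, and since each table has no other guide beside Sin3Bsg1, these were read as sgCtrL.

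Counts were rounded to whole numbers. In the untreated table, 324 loci without a gene name (0.615 to 0.677% of counts) were left out. Each table was fitted apart with edgeR 4.0.16 in R 4.3.3 (TMM scaling, filterByExpr, two-sided quasi-likelihood test, p-values adjusted by Benjamini-Hochberg over every gene tested, threshold 0.05), all 12 libraries of the IFNγ experiment entering 1 fit. The script was tested on simulated data. CPM uses TMM-scaled totals, TPM the deposited length. Intervals of count ratios are exact 95% intervals from summed counts, and a count of 0 was taken as up to 3 counts over the group. Summed reads are log2 ratios of mean CPM with no test. Gene positions and shared windows come from GENCODE vM39 on GRCm39, promoters from RefSeq on GRCm38.p6, and no coordinate was converted.

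All 10 members are reported with every library. Of each gene list, the largest rise and fall past the threshold are named, with Irf1 always given (1 further gene of this rule is not reported here), and the 5 genes most like the family are those of mean CPM of at least 5 with the highest Pearson correlation. Members and lists were chosen with earlier results of these data known. Libraries were not paired by replicate number in the main fit. In the IFNγ experiment same-numbered libraries of different groups had correlations of their deviations from -0.162 to 0.256 (median 0.0249). Differently numbered ones ran from -0.278 to 0.210 (median -0.0190). Between the treated groups, replicates 1, 2 and 3 had 0.208, 0.256 and -0.0209, so some pairing there is not excluded. The untreated value was -0.0136, and 2 libraries a group cannot decide it. Alternatives were DESeq2 1.42.0, other size factors, filters, prior counts and thresholds, a replicate block, only the libraries compared, and each library left out. Sums of reads with Gm43302 or Gm43802, of sharing members and of all members were added after the data were seen.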

Additional observations from a re-analysis of the deposited data

Results flagged for a closer look

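The rise of Gbp9 with IFNγ differed between the genotypes in the test of the difference itself, by 0.82 on the log2 scale, with the larger rise in Sin3Bsg1 (edgeR, adjusted p = 0.0171). No other member passed in that fit of all 12 libraries, although DESeq2 also called Gbp3 (adjusted p = 0.0248) and Gbp6 (adjusted p = 0.0117). Without the count filter edgeR also called Gbp2, Gbp3, Gbp6 and Gbp10 (adjusted p from 1.58e-04 to 0.0277). For Gbp10 the larger rise moved to sgCtrL once Gm43302 was counted with it. The call of Gbp9 was lost in 5 of the 12 fits that left out 1 library. The values of Gbp2 had opposite signs with the Sin3B guide in the 2 experiments, but only the rise passed the test. In the untreated experiment both Sin3Bsg1 libraries were below both sgCtrL libraries, as in 31.4% of all genes. The log2 ratio of mean CPM was -0.34 there, and edgeR did not call the change (adjusted p = 0.391). In the IFNγ experiment without IFNγ all 3 Sin3Bsg1 libraries were above all 3 sgCtrL libraries, as in 18.3% of all genes. The ratio there was 0.65, and edgeR called it (adjusted p = 1.50e-04). The difference between the experiments was not tested, since their tables were normalized apart.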

How the results depend on the processing

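The rises of Gbp2, Gbp3, Gbp6, Gbp7 and Gbp9 with IFNγ were called in both genotypes under each alternative. Calls of the other 5 members are not read as a check on their rises. Low counts without IFNγ let Gbp5, Gbp8, Gbp10 and Gbp11 pass the main count filter only through treated libraries, which fixed their direction. Gbp4 also had few counts in some of the libraries without IFNγ. A minimum of 10 counts in every library left only the first 5 to test. That minimum gave 1 member lower without IFNγ and 1 higher with it. The study's own threshold (unadjusted p under 0.05 and a fold of 1.5 or 1.3) was applied to the edgeR p-values, whereas the study names DESeq2. The counts are thus not those of the study's method. They were 1649 genes without IFNγ, 1595 with it, and 2599 and 2433 for the rises in sgCtrL and Sin3Bsg1. For the difference of the rises 363 genes passed (3 members higher, 2 lower), and in untreated cells 1334 did, with 0 members higher with IFNγ. The adjusted threshold gave 2568, 2464, 4507, 4232, 17 and 4543 genes. DESeq2 ended the calls of Gbp5 with IFNγ (adjusted p = 0.267) and Gbp8 without it (adjusted p = 0.0561). It added Gbp3 and Gbp6 as higher with IFNγ (adjusted p = 0.00235 and 0.00172) and called 2 members, Gbp4 and Gbp10, lower with IFNγ. For the difference of the rises it called 2 members higher, 1 lower and 32 genes. With no filter, 4 members were higher and 1 lower with IFNγ, 3 higher and 2 lower for the difference (110 genes), and 5 lower in untreated cells. Fitting only the 6 libraries compared gave 1 member lower and 3996 genes without IFNγ, and 0 members higher, 1 lower and 1500 genes with it. Leaving out 1 library at a time, members higher with IFNγ ran from 0 to 4 and lower from 0 to 2, and for the difference 0 to 1 members were higher and 1 to 33 genes called. Values that changed sign over such fits were Gbp8 with IFNγ (-0.14 to 0.0013), the difference of the rises of Gbp4 (-0.081 to 0.63), Gbp7 in untreated cells (-0.54 to 0.071) and its sum with Gm43802 (-0.45 to 0.012), none of them called. With a replicate block Gbp8 without IFNγ lost its call, at -2.98 (adjusted p = 0.0521), and no other call of a member changed. Gbp6 without IFNγ was called lower by DESeq2 (adjusted p = 0.013), with no filter (adjusted p = 0.00888), at the study's threshold (unadjusted p = 0.0131) and in 3 of 12 fits that left out 1 library (adjusted p from 0.0133 to 0.0478). The causes were not tested. Members with few counts without IFNγ (Gbp5, Gbp8, Gbp10 and Gbp11) are limited by depth.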
